A study of Mus musculus with 26 samples.

Results

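This account compares the ganglion cell class with the amacrine class of the neonatal mouse retina, on 22 of the 26 arrays of the series. The ganglion cell class was taken as all 12 arrays of 6 retinal ganglion cell (RGC) subtypes and the amacrine class as all 10 arrays of 5 amacrine subtypes. Every subtype had 2 arrays, which the series describes as biological replicates from separate litters, and all mice were at postnatal day 6. The remaining 4 arrays, of MP bipolar and ON bipolar cells, entered the shared fit and are named only where a ganglion cell result is set beside them.

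The RGC subtypes were, per the labels, all sorted as Thy1+ cells that also carried a reporter. BD (the bistratified dendrite type), J, W3 and W7 RGCs were YFP+, Isl2 RGCs were bgal+ and the Cdh3 BAC subset was GFP+. The strain label was C57BL/6 for all of these except the Cdh3 subset, whose 2 arrays read Swiss Webster x C57BL/7 and Swiss Webster x C57BL/8. Among the amacrine subtypes, starburst cells were Kusabira Orange+ and Thy1–, and MP cells were CFP+ and VC1.1+. AII and PaxCre cells were GFP+, J amacrine cells were YFP+, and no antibody is labelled for these 3. The strain was C57BL/6 for starburst, J and PaxCre amacrine cells, mixed C57BL/6 x CD1 for MP cells and Swiss Webster x C57BL/6 for AII cells. The labels call PaxCre cells GABAergic and J amacrine cells glycinergic. Each sample is thus a sorted pool from a reporter line, and it stands for its class only as far as the reporter and gate select it. The Thy1 gate was used for every RGC subtype and Thy1 is therefore no result here.

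Ganglion cells are the output neurons of the retina. They release glutamate, fire trains of action potentials and send a long axon through the optic nerve to the brain, and members of the POU4 and Islet families of transcription factors act in their differentiation. Amacrine cells are interneurons of the inner retina, most of which lack a projecting axon. Most release GABA or glycine, which both enter vesicles through the transporter encoded by Slc32a1, and transcription factors of the AP-2 family mark most of the class. At postnatal day 6 both classes are postmitotic and still building their synapses.

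Promoters are shown first for 3 genes that carry this contrast. Slc17a6 encodes the vesicular glutamate transporter VGLUT2 of ganglion cells, Slc32a1 encodes the vesicular transporter of GABA and glycine, and Tfap2b encodes an AP-2 factor of amacrine cells. The sequences are from RefSeq on build GRCm38.p6 and run from 250 bases before to 50 bases after an annotated start, 5′ to 3′. Slc17a6 lies at chr7:51624387-51624686 (plus strand, the downstream one of its annotated starts), Slc32a1 at chr2:158610508-158610807 (plus strand) and Tfap2b at chr1:19211804-19212103 (plus strand). Capitals mark matches to ATNANTNAT, a simplified POU4 recognition motif, or to GCCNNNGGC, the AP-2 motif. Each motif reads the same on both strands.
Slc17a6: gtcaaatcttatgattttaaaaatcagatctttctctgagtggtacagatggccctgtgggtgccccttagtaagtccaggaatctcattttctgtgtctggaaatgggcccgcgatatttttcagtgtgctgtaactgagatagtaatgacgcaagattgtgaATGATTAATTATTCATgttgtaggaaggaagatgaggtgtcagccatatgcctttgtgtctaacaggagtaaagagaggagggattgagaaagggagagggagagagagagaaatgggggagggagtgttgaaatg
Slc32a1: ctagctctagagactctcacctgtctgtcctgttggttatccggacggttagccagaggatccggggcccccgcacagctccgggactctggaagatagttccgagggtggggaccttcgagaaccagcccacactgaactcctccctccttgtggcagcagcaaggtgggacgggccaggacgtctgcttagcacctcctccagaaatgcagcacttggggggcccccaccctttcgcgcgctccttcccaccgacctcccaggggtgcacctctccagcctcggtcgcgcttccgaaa
Tfap2b: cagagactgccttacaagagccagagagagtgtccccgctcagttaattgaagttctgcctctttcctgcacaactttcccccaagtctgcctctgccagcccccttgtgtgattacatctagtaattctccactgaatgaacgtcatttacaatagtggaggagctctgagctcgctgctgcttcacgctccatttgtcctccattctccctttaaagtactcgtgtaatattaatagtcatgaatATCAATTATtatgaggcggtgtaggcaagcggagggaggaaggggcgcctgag

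The Slc17a6 window held 3 overlapping POU4 matches in 1 run, the Tfap2b window held 1 POU4 match, and the Slc32a1 window held a match to neither motif. The window of the other annotated Slc17a6 start, at chr7:51621580-51621879, also held neither, nor did the windows of Pou4f1 and Sncg. Over the 11222 tested genes with a promoter in the RefSeq table, 3.5% had a POU4 match and 27.6% had an AP-2 match. Of the 611 such genes that were higher in RGCs in every pair of subtypes (defined below), 4.3% had a POU4 match and 26.4% an AP-2 match. Of the 309 that were lower in every pair, 1.9% had a POU4 match and 26.2% an AP-2 match. These shares describe letters in a window and say nothing of binding.

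All levels are log2(intensity + 16) after quantile normalisation, on which the lowest possible value is 4.09. Differences are RGC minus amacrine, with every subtype weighted equally, and folds of dim genes are understated on this scale. The deposited columns did not share a scale: their median intensities were 61.5 to 74.8 on RGC arrays and 37.4 to 47.1 on amacrine arrays, with no overlap. Of 64 control probe sets, 11 were higher and 2 were lower on every RGC array than on every amacrine array. Class and array set therefore coincide and cannot be told apart in any result below.

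Of the 6 marker genes, 5 separated the arrays by class without overlap and Tfap2b did so except for 1 RGC array. Sncg, which encodes gamma-synuclein, lay between 10.62 and 11.70 (median 11.39) on RGC arrays and between 4.09 and 5.24 (median 4.35) on amacrine arrays. Rbpms, an RNA-binding protein gene used to mark all ganglion cells, lay at 10.80 to 11.63 (median 11.24) in RGCs, against 4.51 to 5.51 (median 5.03) in amacrine cells. Slc17a6 lay at 11.36 to 12.23 over the 12 RGC arrays (median 11.70) and at 4.56 to 6.81 over the 10 amacrine arrays (median 6.10). In none of these 3 genes did an RGC array overlap with an amacrine array. Sncg and Rbpms lay near the floor of the scale in amacrine cells, while Slc17a6 lay about the overall median of 6.14.

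The POU-domain factor gene Pou4f1 lay between 10.93 and 13.05 (median 12.68) on RGC arrays and between 5.17 and 8.63 (median 5.95) on amacrine arrays. Among RGC arrays it varied more than the 3 genes above, with subtype means of 11.25 in Cdh3 and 12.19 in BD RGCs as the lowest, and the highest amacrine array was J amacrine replicate 2. Even so, no array of one class reached the other. Slc32a1 was the reverse case, lying at 4.09 to 5.41 (median 4.21) in RGCs, against 10.34 to 11.65 (median 11.09) in amacrine cells. Its groups did not overlap. The highest RGC value for Slc32a1 was on J RGC replicate 1. Tfap2b lay at 4.73 to 9.22 over the 12 RGC arrays (median 6.33) and at 8.55 to 12.54 over the 10 amacrine arrays (median 12.11), which is the only overlap among the 6 markers. J RGC replicate 1, at 9.22, lay between the MP amacrine arrays at 9.48 and 8.55.

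**Figure D1:**
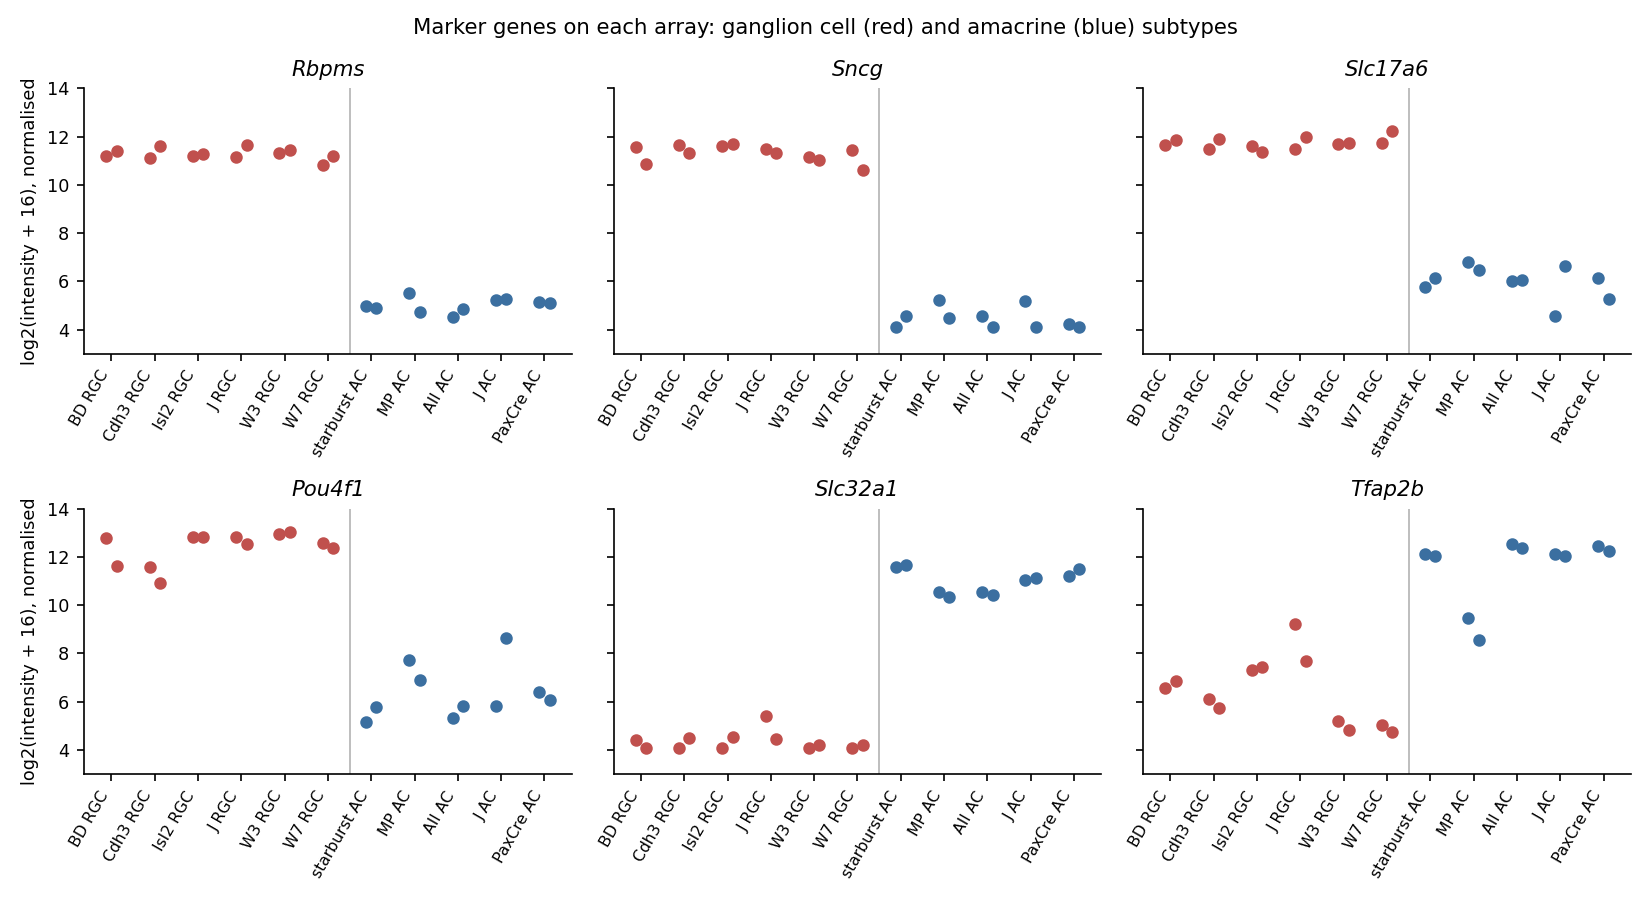
Level of the 6 marker genes on each array, as log2(intensity + 16) after normalisation, with 2 points per subtype, RGC subtypes on the left (red) and amacrine subtypes (AC) on the right (blue). Rbpms, Sncg, Slc17a6 and Pou4f1 are high on all 12 RGC arrays and Slc32a1 on all 10 amacrine arrays, while Tfap2b is intermediate in MP amacrine cells and on J RGC replicate 1.

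The class comparison asked which genes differ between ganglion cells and amacrine cells on average and in each combination of subtypes. A gene was called at a Benjamini-Hochberg adjusted p under 0.05 (limma, two-sided test) if the difference also reached 1 log2 unit. The median difference over all tested genes was 0.00 log2 units. Of 13951 genes tested, 3456 (24.8%) were called, 2201 (15.8%) of them higher and 1255 (9.00%) lower in RGCs. Higher genes thus made up 63.7% of the calls, and 85.8% in the columns as deposited, where the RGC scale is not removed. On 1430 genes (10.3%) every RGC array lay above every amacrine array, and on 990 (7.10%) every RGC array lay below. Errors come from replicates within a subtype, so the p-values speak of these 11 subtypes. In bulk RNA of sorted cells, fewer cells of a type and less RNA per cell cannot be told apart.

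Each RGC subtype was then set against each amacrine subtype, which gives 30 pairs that share arrays and are not independent. A single pair had 3307 (W3 RGC against PaxCre amacrine) to 5290 (Isl2 RGC against AII amacrine) genes called, with a median of 4110.5. The amacrine partner moved this count more than the RGC partner did. Pairs with AII cells had 4787 to 5290 calls and pairs with PaxCre cells 3307 to 3759, whereas the median count by RGC subtype lay between 3820 for W3 and 4318 for W7.

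Of the genes called for the class, 784 (5.62% of all tested) were also called higher in each of the 30 pairs and 409 (2.93%) were called lower in each. This balance depended on the scale: it was 1308 higher and 205 lower in the columns as deposited, and 435 and 160 with a pseudocount of 64. Together the 784 and 409 genes made up 34.5% of the class calls. A further 1286 called genes passed in 20 to 29 pairs and 977 in fewer than 20, the fewest being 4 pairs. The sign was the same in all 30 pairs for 2656 called genes (76.9%), and for 800 at least 1 pair of subtypes went the other way.

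**Figure D2:**
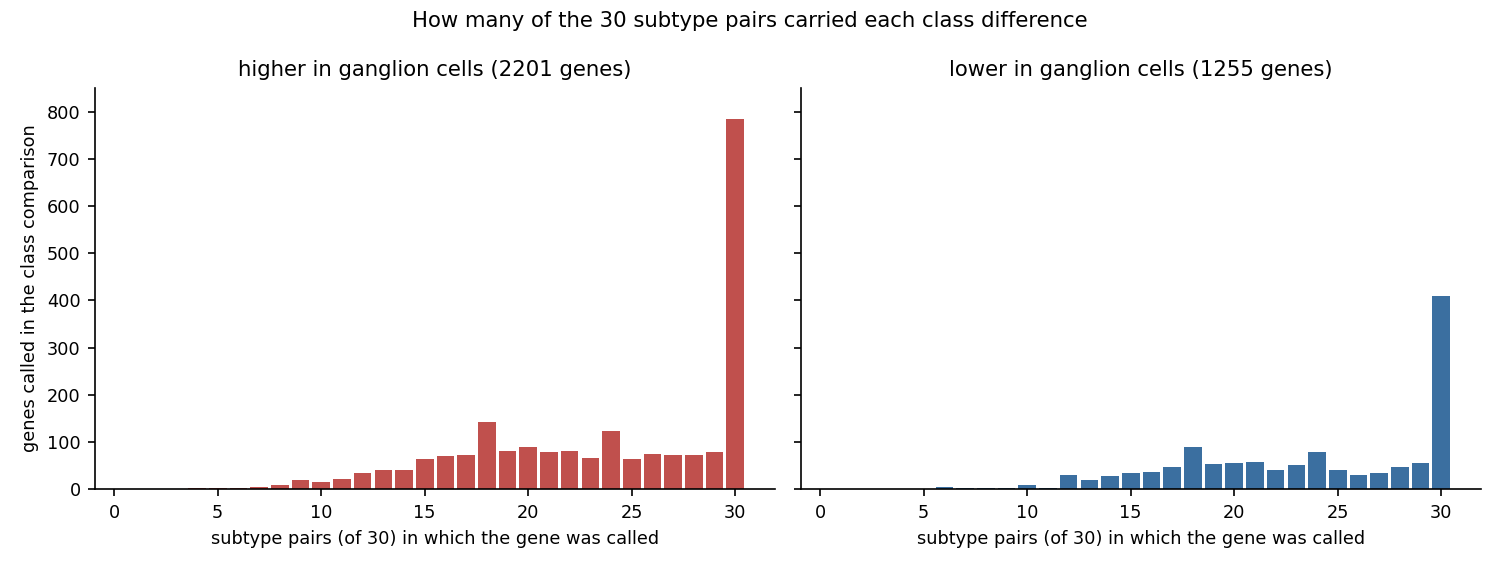
Number of genes called in the class comparison (y axis) by the number of the 30 subtype pairs in which the gene was called the same way (x axis), for genes higher (left) and lower (right) in RGCs. The largest bar in each panel is at 30 of 30 pairs, with 784 and 409 genes, and smaller peaks stand at 18 and 24 pairs.

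Where a class difference failed in some pair, the amacrine subtype nearest to the RGC side was unevenly spread. For the 1417 genes called higher but not in all pairs, it was PaxCre in 27.8% and starburst in 25.8%, and J amacrine in 11.6%. For the 846 called lower but not in all pairs, it was starburst in 27.9% and AII in 26.5%. The RGC subtype nearest to the amacrine side was more even, between 10.4% (Isl2) and 19.5% (W7) for higher genes.

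Genes of the fast transmitters were taken first, since the classes are known to differ in them. Slc17a6 was called in all 30 pairs, with a difference of 5.74 ± 0.19 log2 units (SE; adjusted p = 9.59e-15) and a smallest pair difference of 4.86. Slc32a1 had the largest fall of any gene called in every pair, with a difference of -6.65 ± 0.11 (100-fold, adjusted p = 2.77e-18) and a smallest pair difference of -5.52. The glutamate transporter gene Slc17a7 was not called, at -0.36 ± 0.11.

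The enzymes and transporters of GABA and glycine did not follow Slc32a1 as a group: of 8 tested, 3 were lower and 2 were higher (median difference -0.33). Among all genes, 9.00% were lower and 15.8% higher. Of the 5 with a next brightest probe set, 3 were lower on it and none was higher. Gad1, which encodes a GABA-synthesising enzyme, lay between 4.48 and 9.03 (median 5.93) on RGC arrays and between 5.73 and 12.59 (median 10.82) on amacrine arrays, and passed in 20 of 30 pairs with a class difference of -3.39 ± 0.20. The groups overlapped because Gad1 was low in AII (5.75) and MP (6.20) amacrine cells and reached 9.03 on J RGC replicate 1. The glycine transporter gene Slc6a9 had a difference of -3.49 ± 0.09 and passed in 24 pairs. The transcript was at 11.75 in AII and 11.69 in J amacrine cells, against 6.01 in starburst cells, which lay within the RGC range of 5.68 to 6.11 (median 5.95). Its next brightest probe set gave 0.58 ± 0.07, the other sign. Gad2, the other GABA-synthesising enzyme, was higher in RGCs by 1.23 ± 0.11 on its brightest probe set, yet its next brightest probe set gave -0.74 ± 0.10. Slc6a11, a GABA transporter gene, likewise gave 1.64 ± 0.08 and -1.05 ± 0.08 on its 2 tested probe sets. The sign of these 3 genes therefore depends on the probe set read.

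Lists of ganglion cell genes were read beside 15.8% higher and 9.00% lower among all genes. Of 14 tested marker genes of ganglion cells, 12 were higher, 7 of them in all pairs, and none was lower (median difference 3.36). Among transcription factor genes linked to ganglion cells, 11 of 29 tested were higher, 5 of them in all pairs, and 2 were lower (median difference 0.89). On the next brightest probe sets, 8 of 17 were higher and 2 lower (median 0.89). Pou4f1 led with 6.03 ± 0.26 (adjusted p = 4.07e-13), and its second probe set gave 6.50 ± 0.13. The iroquois homeobox genes Irx2, Irx3, Irx4 and Irx5 were all higher in every pair. Irx2 lay at 6.92 to 8.99 (median 8.38) in RGCs, against 4.14 to 5.17 (median 4.76) in amacrine cells, with a difference of 3.40 ± 0.14. Irx3 differed by 2.72 ± 0.16, Irx5 by 2.34 ± 0.09 and Irx4 by 2.21 ± 0.11, and no RGC array of any of these genes overlapped with an amacrine array. In contrast, Irx1 and Irx6 differed by 0.02 ± 0.27 and 0.39 ± 0.13 and were not called. The 4 genes were dim in amacrine cells, where the highest array was 5.64 for Irx3 and 6.76 for Irx5. Irx1 and Irx6 had their highest means in Cdh3 RGCs, at 8.27 and 8.94.

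Some other factor genes were higher in RGCs on average but shared with single amacrine subtypes. Isl1, the LIM-homeodomain factor gene, lay at 11.70 to 12.37 over the 12 RGC arrays (median 12.06) and at 4.82 to 12.82 over the 10 amacrine arrays (median 9.73), with a difference of 2.82 ± 0.16 and 24 of 30 pairs called. The exception was starburst cells, whose mean of 12.81 was above that of every RGC subtype. Ebf1, an early B-cell factor gene, had a mean of 11.96 in J amacrine cells, also above every RGC subtype, and a class difference of 2.49 ± 0.17 that turned to -1.65 in the J line alone. Ebf3 had a mean of 12.12 in MP amacrine cells, with a class difference of 2.39 ± 0.17 (-0.66 in the J line alone). Bcl11b, a zinc finger factor gene, differed by 1.58 ± 0.27 over the class, but the pair of Cdh3 RGC and PaxCre amacrine cells gave -3.74 (means 6.73 and 10.46), and its next probe set gave -0.11 ± 0.12. Foxp2, a forkhead factor gene, was not of this kind. It spread widely among RGC arrays, at 6.44 to 11.44 (median 9.68), and little among amacrine arrays, at 6.74 to 7.56 (median 7.00). Myt1, a zinc finger factor gene of differentiating neurons, was lower in all 30 pairs (-1.94 ± 0.10), but its next probe set gave -0.46. The T-box gene Tbx20 was the other lower member (-1.17 ± 0.09), but its next probe set gave 2.63 ± 0.25.

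Of 20 tested transcription factor genes linked to amacrine cells, 12 were lower in RGCs, 2 of them in all pairs, and 1 was higher (median difference -1.48). The shares over all genes were 9.00% lower and 15.8% higher. The next brightest probe sets gave 7 of 11 lower and none higher. Prox1, a homeobox gene known in AII cells, was the clearest of the 12, lying between 4.09 and 4.70 (median 4.33) on RGC arrays and between 6.39 and 11.76 (median 9.07) on amacrine arrays. Its difference was -4.59 ± 0.18 on the brightest and -2.39 ± 0.11 on the next brightest probe set, and even starburst cells, its lowest amacrine subtype (6.49), lay above every RGC array. Lbh, which encodes a transcription cofactor, gave -4.79 ± 0.12 on its brightest probe set and -0.02 ± 0.10 on the next.

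Among the AP-2 genes, Tfap2b differed by -5.20 ± 0.15 (adjusted p = 2.29e-15) and Tfap2a by -4.42 ± 0.19, each called in 29 of 30 pairs. The failing pair was in both cases J RGC against MP amacrine, with differences of -0.55 and -0.28. Tfap2b and Tfap2a read alike on their next probe sets, at -5.19 ± 0.13 and -3.44 ± 0.10. Tfap2c was called in 20 pairs and was low in starburst cells (5.47) while reaching 10.16 on J RGC replicate 1. Tfap2e was high in PaxCre (10.41) and J (9.76) amacrine cells and at the floor in the remaining amacrine subtypes (at most 4.43). Tfap2d ran the other way, with a difference of 1.26 ± 0.15 and 13 pairs called, being highest in BD RGCs (9.53) and lowest of all RGCs in Cdh3 (5.32). Starburst cells had 7.92. The neurogenic bHLH genes Neurod1 (-1.64 ± 0.19), Neurod2 (-1.77 ± 0.33) and Neurod6 (-1.98 ± 0.08) were lower as a class, although Neurod1 gave 0.10 in the J line alone, and Neurod6 passed in 12 pairs, those with MP (10.89) and J (8.00) amacrine cells. Its mean was at most 4.41 in the other amacrine subtypes.

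Of 25 tested genes of the axonal cytoskeleton, 11 were higher in RGCs, 3 of them in all pairs, and 1 was lower (median difference 0.53). Over all genes, 15.8% were higher and 9.00% lower. Nefl, the light neurofilament subunit, lay at 12.60 to 13.07 (median 12.83) in RGCs, against 6.51 to 10.76 (median 9.14) in amacrine cells, and its difference was 4.04 ± 0.28 (adjusted p = 3.36e-10) with 4.33 ± 0.18 on its second probe set. The medium subunit gene Nefm and the heavy subunit gene Nefh differed by 3.24 ± 0.30 and 2.24 ± 0.14, and passed in 20 and 24 pairs. PaxCre cells had the highest amacrine means of Nefl and Nefm (10.75 and 11.01) and starburst cells that of Nefh (9.35). Gap43, a growth cone protein gene, lay at 10.22 to 11.30 over the 12 RGC arrays (median 10.66) and at 5.29 to 9.36 over the 10 amacrine arrays (median 6.23), and differed by 3.96 ± 0.13 in all 30 pairs. Tubb3, the neuronal beta-tubulin gene, differed by 2.81 ± 0.16 in all pairs.

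Other members of the list bind microtubules or tubulin, and they did not move as 1 group. Map1b differed by 3.10 ± 0.23, the doublecortin gene Dcx by 2.51 ± 0.22 and the stathmin genes Stmn2 and Stmn4 by 2.41 ± 0.14 and 2.08 ± 0.13. These 4 were called, none of them in all pairs, and the median over probe sets of Dcx gave -0.06. Dcx reached 11.87 in PaxCre cells, above the RGC median of 11.29. Not called were Mapt (0.30 ± 0.06), Stmn1 (0.43 ± 0.07) and Map1a (0.38 ± 0.10). Dpysl4, a collapsin response mediator gene, was the 1 lower member (-2.91 ± 0.10 in all 30 pairs, but -0.27 ± 0.11 on its next probe set). Of the 16 list members with a next brightest probe set, 12 were higher on it and none was lower.

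Of 17 motor genes, 5 were higher and none was lower in RGCs, and none passed in all pairs (median difference 0.15, beside 15.8% higher and 9.00% lower among all genes). Next brightest probe sets gave 1 of 12 higher and 1 lower (median 0.08). Kif5a, a kinesin of axonal transport, lay between 11.14 and 12.01 (median 11.77) on RGC arrays and between 9.31 and 11.19 (median 10.61) on amacrine arrays, a difference of 1.39 ± 0.09. Kif3c differed by 1.52 ± 0.08 in 29 pairs, but its next probe set gave -2.04 ± 0.08. Dync1i1, a dynein intermediate chain gene, differed by 2.09 ± 0.14 although AII cells (11.87) were above every RGC subtype.

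Among 28 receptors of axon guidance, 6 were higher and 3 were lower in RGCs, against 15.8% and 9.00% of all genes, with a median difference of 0.15. The next probe sets gave 3 of 16 higher and 2 lower (median -0.23). Epha6, an ephrin receptor gene, lay at 6.37 to 7.37 (median 6.82) in RGCs, against 4.20 to 5.06 (median 4.70) in amacrine cells, and its difference of 2.22 ± 0.11 held in all 30 pairs. Epha5 differed by 2.13 ± 0.12, and by 1.90 ± 0.14 on its next probe set. Nrp1, a semaphorin and VEGF co-receptor gene, lay at 10.52 to 11.39 over the 12 RGC arrays (median 10.86) and at 5.76 to 9.86 over the 10 amacrine arrays (median 8.44), with a difference of 2.76 ± 0.13 and no overlap of arrays. Plxna2, a semaphorin receptor gene, was lower by the same standard, lying between 5.17 and 8.59 (median 7.37) on RGC arrays and between 10.31 and 11.81 (median 10.55) on amacrine arrays, and its difference of -3.43 ± 0.08 held in all pairs. Islr2 was higher on average (2.65 ± 0.18) yet highest of all subtypes in starburst cells (10.54). The receptors of the midline pathway did not pass, with Robo1 at 0.43 ± 0.17, Robo2 at 0.21 ± 0.23 and Dcc at 0.15 ± 0.11.

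Adhesion molecules of the L1 and contactin families were called higher in 7 of 14 cases and lower in none (median difference 1.02), beside 15.8% and 9.00% of all genes. The next probe sets gave 3 of 12 higher and 2 lower (median 0.07). Chl1 lay at 11.27 to 11.82 (median 11.61) in RGCs, against 6.40 to 8.35 (median 7.79) in amacrine cells, a difference of 4.05 ± 0.14 in all pairs. Its next brightest probe set differed by 0.00 ± 0.18, so the 2 probe sets of this gene did not read alike. Cntn1 showed the same, with 2.16 ± 0.10 and 0.19 ± 0.18, whereas L1cam (1.56 ± 0.09 and 2.04 ± 0.12) and Cntn4 (2.13 ± 0.16 and 2.48 ± 0.16) were higher on both. In the J line alone L1cam gave -0.09. Alcam, a related adhesion molecule gene, reached 10.77 in PaxCre cells and passed in 18 pairs.

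Genes of action potential generation were then read. Of 7 voltage-gated sodium channel genes tested, 6 were higher, against 15.8% of all genes, and none was lower. Their median difference was 1.24, and in the next brightest probe sets 2 of the 5 with one were higher. Scn9a was the 1 sodium channel gene called in all pairs, lying at 8.58 to 10.42 over the 12 RGC arrays (median 9.20) and at 4.36 to 7.17 over the 10 amacrine arrays (median 6.30), with 3.37 ± 0.15 on its brightest and 3.27 ± 0.14 on its next probe set. Scn1a differed by 1.60 ± 0.10, Scn2a by 1.1 ± 0.18 and Scn3a by 1.09 ± 0.12, and the beta subunit genes Scn3b and Scn2b by 1.68 ± 0.09 and 1.24 ± 0.15. The next probe set of Scn2b gave -0.14 ± 0.28, and Scn2a gave -0.36 in the J line alone. Starburst cells were the lowest subtype for Scn1a (4.92) and Scn3a (6.76). AII cells had 11.38 for Scn1a, above every RGC subtype. Scn3a passed in 6 pairs, all of them against starburst cells, so its class difference rests on that subtype. Scn8a was not called, at 0.42 ± 0.17.

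Of 22 potassium channel genes, 9 were higher, 2 of them in all pairs, and 3 were lower (median difference 0.56, beside 15.8% and 9.00% of all genes). On the next brightest probe sets, 3 of 13 were higher and none was lower, and the median was -0.13. Kcnd2, an A-type channel gene, lay between 10.20 and 11.70 (median 11.02) on RGC arrays and between 5.72 and 9.22 (median 7.48) on amacrine arrays, and differed by 3.50 ± 0.17. Kcna6 differed by 3.36 ± 0.08 in all pairs on its brightest probe set and by -0.13 ± 0.10 on its next. Kcnq3, the M-current channel gene of the axon initial segment, differed by 2.64 ± 0.21. Kcna5, a delayed rectifier gene, was the furthest in the other direction, with a difference of -3.58 ± 0.22 and a mean of 12.04 in PaxCre cells, and Kcng4, a silent subunit gene, was lower in all pairs (-1.69 ± 0.10). Among the fibroblast growth factor homologous factors, which bind sodium channels, Fgf12 differed by 2.88 ± 0.12, Fgf13 by 1.94 ± 0.13 and Fgf14 by 1.16 ± 0.18. Fgf14 turned to -1.53 in the J line alone and to -0.37 with C57BL/6 subtypes alone. Of 13 genes of the axon initial segment and node, 4 were higher and 1 was lower, and the scaffold genes Ank3 (0.69 ± 0.16) and Sptbn4 (-0.44 ± 0.13) were not called.

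Of 18 calcium channel genes, 4 were higher and 3 were lower, beside 15.8% and 9.00% of all genes (median difference 0.18). Of their next probe sets, 1 of 9 was higher and none was lower (median -0.27). The L-type subunit gene Cacna1c differed by 1.93 ± 0.18, and by -0.23 ± 0.15 on its next probe set. The T-type subunit gene Cacna1g was lower in all 30 pairs (-1.69 ± 0.08), with RGC arrays of 5.60 to 6.14 (median 5.90) and amacrine arrays of 7.26 to 8.28 (median 7.46). Its relative Cacna1h was lower too (-1.74 ± 0.14).

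Genes of vesicle release were near the background of 15.8% higher and 9.00% lower, with 7 of 33 higher and 3 lower (median difference 0.03). Read on their next probe sets, 8 of 21 were higher and 4 were lower (median 0.45). The 2 that passed in all pairs were both lower. Cplx3, a complexin of ribbon synapses and AII cells, lay at 5.18 to 6.17 (median 5.56) in RGCs, against 9.93 to 12.02 (median 11.37) in amacrine cells, a difference of -5.54 ± 0.09 (adjusted p = 2.77e-18). It was at 11.97 in AII and 10.03 in PaxCre cells. Syt5, a synaptotagmin gene, differed by -2.56 ± 0.11. Cplx1, the complexin of conventional synapses, went the other way (1.70 ± 0.12, and 1.67 ± 0.12 on the next probe set), as did Syn2 (3.16 ± 0.19). General vesicle genes were not called, such as Syt1 (-0.35 ± 0.08), Snap25 (0.61 ± 0.10) and Syp (-0.41 ± 0.20).

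Transmitter receptors were read by family, beside 15.8% higher and 9.00% lower among all genes. Chrna6 was the 1 of 9 nicotinic receptor genes called higher, lying at 8.12 to 10.90 over the 12 RGC arrays (median 9.95) and at 5.43 to 6.77 over the 10 amacrine arrays (median 6.28). Its difference was 3.47 ± 0.13, and 2.06 ± 0.13 on the next probe set, in all 30 pairs. Of the 9 genes 1 was lower, and the usual partner gene Chrnb3 was not called (0.36 ± 0.14). Next brightest probe sets of this family gave 2 of 5 higher and none lower. Of 15 receptor genes for GABA and glycine, 3 were higher and 2 were lower, and on the next brightest probe sets 2 of 8 were higher and none was lower. Gabra5 lay between 8.82 and 10.85 (median 10.06) on RGC arrays and between 4.09 and 8.67 (median 6.07) on amacrine arrays, and differed by 3.67 ± 0.17 in 29 pairs, while Gabrd differed by -2.23 ± 0.09 and was highest in starburst cells (10.45, against 5.44 in J amacrine cells).

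Of 14 ionotropic glutamate receptor genes, 5 were higher and 2 were lower, beside 15.8% and 9.00% of all genes (median difference -0.03). The next brightest probe sets gave 1 of 7 higher and 2 lower. Grin2d (1.83 ± 0.09) and Grid1 (2.10 ± 0.16) passed in all pairs. Grin3a, an NMDA receptor subunit gene, differed by 2.29 ± 0.15, and by 3.13 ± 0.15 on its next probe set. The kainate receptor genes diverged, with Grik3 at 3.03 ± 0.15 and Grik2 at -2.53 ± 0.12. The AMPA receptor genes Gria1 to Gria4 lay between -0.72 and 0.17 and none was called.

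Secreted signals differed in both directions, with 7 of 22 higher and 5 lower, beside 15.8% and 9.00% of all genes (median difference 0.09). The next brightest probe sets gave 5 of 10 higher and 3 lower. Shh, the hedgehog ligand that ganglion cells supply to the developing retina and optic nerve, lay at 9.52 to 10.78 (median 10.29) in RGCs, against 5.89 to 8.96 (median 6.62) in amacrine cells, and differed by 3.23 ± 0.16 in 29 pairs. Pdgfa, the ligand of retinal astrocytes, lay at 10.02 to 11.74 over the 12 RGC arrays (median 11.05) and at 4.53 to 9.36 over the 10 amacrine arrays (median 7.47), with a difference of 3.79 ± 0.22 in 29 pairs. Vegfa, the vascular growth factor, was opposite, lying between 5.36 and 6.44 (median 5.92) on RGC arrays and between 8.87 and 11.22 (median 9.90) on amacrine arrays, a difference of -4.14 ± 0.11 in all 30 pairs. Its highest mean was 11.21 in AII cells, and PaxCre and starburst cells had 9.08 and 9.07.

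Among other secreted products, Nrn1, a neuritin gene of neurite growth, differed by 4.11 ± 0.09 and the proenkephalin gene Penk by 2.94 ± 0.10, both in all pairs. Arrays of the classes did not overlap for either. Penk was dim in amacrine cells, with arrays of 4.13 to 5.0 (median 4.44). Adcyap1, which encodes the peptide PACAP of melanopsin ganglion cells, was in no list but passed in all pairs, at 3.0 ± 0.10, and at 2.68 ± 0.17 on its next probe set. Igf1 was higher on average (4.01 ± 0.17) but uneven, with RGC subtype means between 7.87 in W3 and 12.55 in Cdh3. Tgfb2 was lower (-2.89 ± 0.19, and -4.04 ± 0.16 on the next probe set).

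On the receptor side of trophic signalling, 2 of 13 genes were higher and 2 were lower (median difference 0.13, beside 15.8% and 9.00% of all genes). On the next brightest probe sets the balance turned, with 1 of 8 higher and 5 lower (median -1.11). Il6st, the shared receptor chain of the CNTF and LIF family, gave 3.82 ± 0.15 in all pairs, and Lifr gave 1.85 ± 0.13. The next probe sets of both were negative, at -1.12 ± 0.16 and -1.80 ± 0.10, so neither direction held across probe sets. The neurotrophin receptor genes Ntrk2 and Ntrk3 were not called, at -0.10 ± 0.15 and 0.26 ± 0.11.

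Small calcium-binding and S100 proteins gave some of the widest gaps. S100a10, the partner of annexin A2, lay at 11.31 to 11.94 (median 11.74) in RGCs, against 4.75 to 6.42 (median 5.36) in amacrine cells, a difference of 6.23 ± 0.14 with 5.52 ± 0.11 on its next probe set. Anxa2, its partner gene, differed by 2.24 ± 0.17, and by 5.67 ± 0.19 on the next probe set. S100a16 was the 1 lower S100 gene, by -1.78 ± 0.09 and -2.31 ± 0.09 on its 2 probe sets. Of 14 EF-hand and related genes, 7 were higher and 2 were lower, beside 15.8% and 9.00% of all genes (median difference 0.96). The next brightest probe sets gave 2 of 6 higher and none lower. S100a1 gave 2.47 ± 0.11 in all pairs. Hpca, the hippocalcin gene, differed by 3.29 ± 0.16 and the neurogranin gene Nrgn by 3.02 ± 0.12, in all pairs. Calb2, the calretinin gene, passed in 20 pairs (2.27 ± 0.20) and was as high in starburst cells (11.40) as in RGCs. Pvalb, the parvalbumin gene, was not called (0.21 ± 0.10).

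Gene sets that serve all cells were read for comparison, beside 15.8% higher and 9.00% lower among all genes. Of 31 oxidative phosphorylation genes, 3 were higher and none was lower, with a median difference of 0.53 against 0.00 for all tested genes. Of 31 cytosolic ribosomal protein genes, 2 were higher and none was lower, with a median of 0.46. Of 20 housekeeping genes, 1 was higher and 2 were lower, with a median of 0.09. On the next brightest probe sets, 7 of 19, 4 of 15 and 2 of 13 genes of these sets were higher and none was lower. In the columns as deposited, where the median of all tested genes stood at 0.529, the counts of higher genes in these sets were 16, 14 and 4. Of 20 immediate early and stress genes, 5 were higher and 2 were lower (median 0.03), with list means per array of 7.79 to 8.76 on RGC arrays and 7.63 to 8.48 on amacrine arrays. Of 16 cell death and survival genes, 3 were higher and none was lower (median -0.24).

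**Figure D3:**
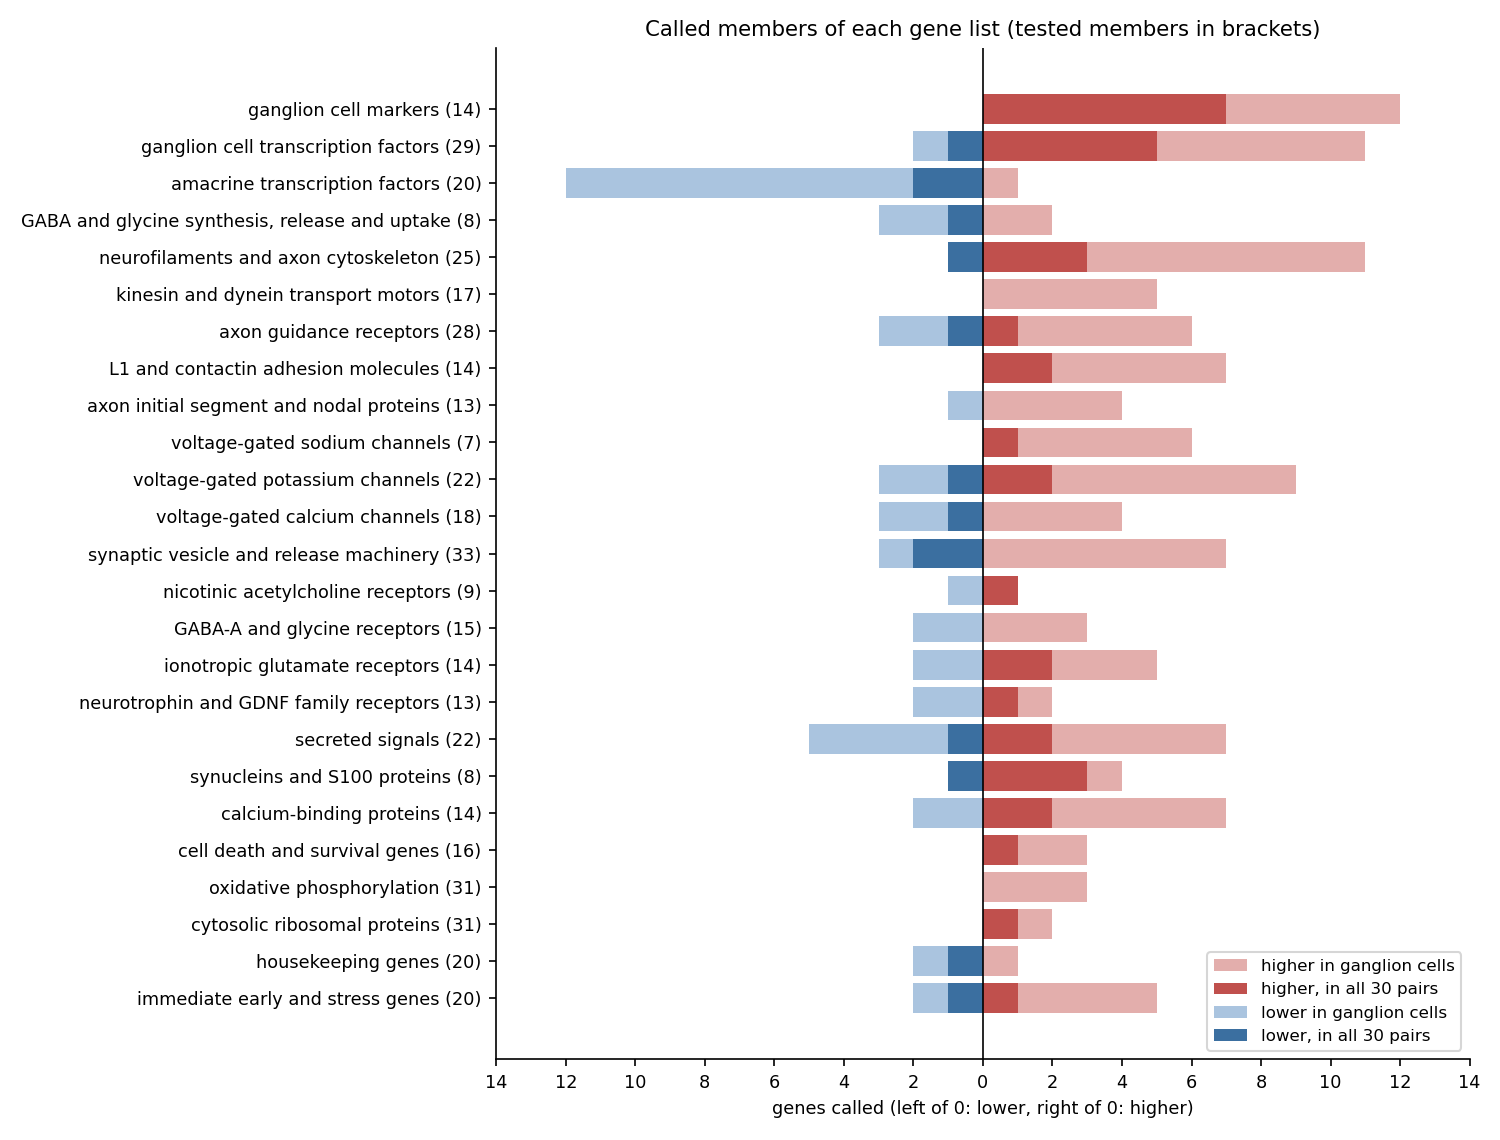
Called members of each gene list, with genes higher in RGCs to the right of 0 and genes lower to the left, and darker bars for genes called in all 30 subtype pairs. The longest bars to the right are the ganglion cell markers (12 genes), ganglion cell transcription factors (11) and axonal cytoskeleton (11), and the longest to the left is the amacrine transcription factors (12).

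The genes with the widest gap between the lowest RGC subtype and the highest amacrine subtype mixed known class genes with general ones. Sncg was first, with a smallest pair difference of 6.18 and a class difference of 6.84 ± 0.15 (115-fold, adjusted p = 4.33e-17). Rbpms, S100a10 and Slc17a6 stood among the next 6, together with Rnf19b, a ubiquitin ligase gene (6.02 ± 0.12), the ribosomal protein gene Rpl39 (5.96 ± 0.20) and the ribonuclease gene Rnasek (5.90 ± 0.15). Below them came Fn3krp, Ifi27, Serpinb6e, Ptpn6, Ifngr2, Gatad2b, Pou4f1 and Fxyd7, with class differences of 4.87 to 6.03. Other probe sets of Rnf19b and Rnasek gave 0.12 and 0.03, with means below the overall median of 6.14 in both classes. That of Ifi27 gave 0.98. Rpl39 lay at 9.09 to 11.06 over the 12 RGC arrays (median 10.88) and at 4.26 to 5.19 over the 10 amacrine arrays (median 4.66), while the 1 other ribosomal protein gene called, Rps19, differed by 1.09 ± 0.15.

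On the low side Slc32a1 was followed by the splicing factor gene U2af2 (-5.34 ± 0.12), Cplx3, Lbh, the Rab GTPase-activating protein gene Tbc1d17 (-3.87 ± 0.11) and the kinase gene Ulk3 (-4.12 ± 0.11). The other 9 were A930024E05Rik, Fut10, Pnmt, Gm11190, Fam78a, Eif4ebp2, 1600014C23Rik, Polr2a and Fbxw19, between -4.20 and -3.18. Polr2a, the largest subunit of RNA polymerase II and a housekeeping gene, lay between 5.68 and 7.20 (median 6.76) on RGC arrays and between 9.67 and 10.29 (median 10.06) on amacrine arrays. U2af2 lay at 4.16 to 5.35 (median 4.72) in RGCs, against 9.52 to 10.48 (median 10.13) in amacrine cells. Both are used by every cell, and U2af2 lay near the floor of 4.09 in RGCs while Polr2a did not.

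Other probe sets of the same genes were therefore read. The next brightest was taken from the same ranking by mean level, so it is dimmer by that choice. Folds of dim genes are understated on this scale. Of the 1193 genes called in all 30 pairs, 319 had another tested probe set. The next brightest one differed in the same direction for 65.2% of them, was called the same way for 105 (32.9%) and passed in all 30 pairs the same way for 60 (18.8%). It was called the opposite way for 29, and the median difference in the direction of the first was 0.38. For comparison, over all 6268 tested genes with a next probe set, whatever their class difference, 66.2% had the same direction on both and 19.1% were called on the next one in that direction, and over the 1242 called for the class these shares were 72.9% and 37.2%. Genes called in all 30 pairs thus kept their direction no more often than tested genes at large. Ifngr2 had 4.95 ± 0.10 and 0.00 ± 0.14, Ptpn6 5.33 ± 0.09 and 0.69 ± 0.17, Gatad2b 5.03 ± 0.22 and 0.53 ± 0.15, and Polr2a -3.37 ± 0.14 and -0.81 ± 0.16. Fut10 was opposite, at -3.57 ± 0.10 and 2.24 ± 0.08.

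The bipolar arrays, whose median intensities of 41.1 to 45.8 lie in the amacrine range, were read in the same way. Bipolar against amacrine cells had 1446 genes called (10.4%). Of the 87 of these with another tested probe set and at least 1 log2 unit apart in all 10 pairs of subtypes, 90.8% kept the direction on the next probe set and 63.2% were called the same way. None was called the opposite way. The same rule without the p per pair, applied to RGCs against amacrine cells, left 328 genes with another probe set, of which 64.6% kept the direction, 33.2% were called the same way and 29 were called the opposite way. The median differences in the first direction were 0.38 for the RGC comparison and 1.52 for the bipolar comparison. The difference between these shares was not tested, and the 2 comparisons share the amacrine arrays.

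**Figure D4:**
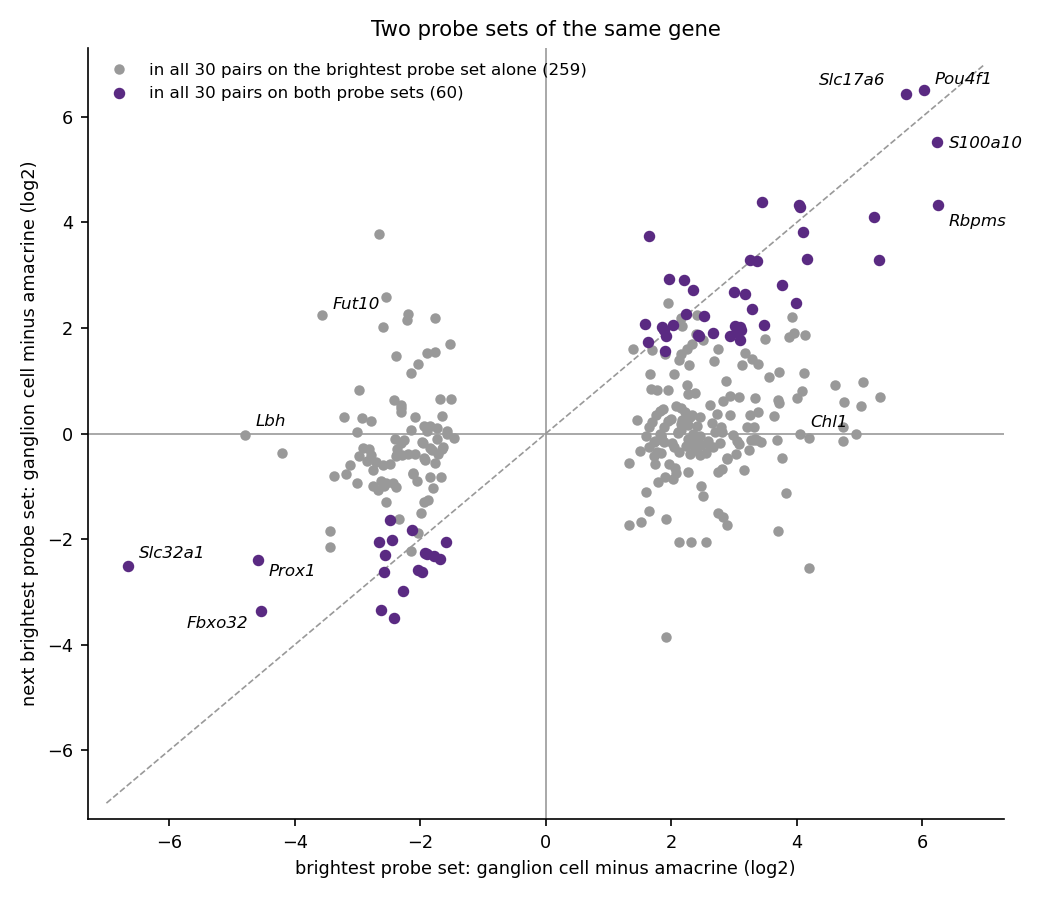
Difference between RGC and amacrine arrays (log2) on the brightest probe set (x axis) and the next brightest (y axis) of the 319 genes called in all 30 pairs that have both, with the 60 that passed on both in purple and the dashed line marking equal values. Pou4f1, Slc17a6, S100a10 and Rbpms are far from 0 on both axes, while many genes such as Chl1 and Lbh lie near 0 on the y axis.

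The 60 genes that passed in all 30 pairs on both probe sets were 41 higher and 19 lower, and they are a list picked after their values were seen. The higher ones include Pou4f1, Slc17a6, Rbpms, S100a10, Nefl, Scn9a, Chrna6 and Adcyap1, whose values stand above. They include Rgs4, a regulator of G protein signalling, which lay at 11.46 to 12.22 over the 12 RGC arrays (median 11.69) and at 4.32 to 8.92 over the 10 amacrine arrays (median 5.93), with 5.23 ± 0.15 and 4.10 ± 0.17 on its 2 probe sets. Opcml, an IgLON adhesion molecule gene, had 5.31 ± 0.17 and 3.28 ± 0.14, and Gng4, a G protein gamma subunit gene, 4.10 ± 0.16 and 3.82 ± 0.11. Hs3st2, a heparan sulphate sulphotransferase gene, had 4.05 ± 0.11 and 4.30 ± 0.13. It was not low outside the amacrine class, since MP bipolar cells had a mean of 11.68, above every RGC subtype. Clstn2, a calsyntenin gene, had 3.99 ± 0.27 and 2.48 ± 0.11, with an MP bipolar mean of 10.91. Lgals1, the galectin-1 gene, had 3.44 ± 0.16 and 4.39 ± 0.19, and Pirt, a regulator of TRP channels, 4.16 ± 0.14 and 3.30 ± 0.22.

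The 19 lower ones include Slc32a1, Prox1 and S100a16. Fbxo32, a ubiquitin ligase component, lay between 4.19 and 4.52 (median 4.33) on RGC arrays and between 6.98 and 9.96 (median 9.06) on amacrine arrays, with -4.53 ± 0.12 and -3.36 ± 0.21. Adcy5, an adenylate cyclase gene, had -2.04 ± 0.09 and -2.58 ± 0.10, Gpc4, a glypican gene, -2.42 ± 0.17 and -3.49 ± 0.11, and Jam3, a junctional adhesion molecule gene, -1.68 ± 0.10 and -2.37 ± 0.13. Slc32a1 gave -2.51 ± 0.08 on its next probe set. Of the 14 lower genes with a promoter in the RefSeq table, 8 held an AP-2 match, and of the 30 higher genes with a promoter, 9 did. Among all 309 genes lower in every pair the share was 26.2%, beside 27.6% of all tested genes.

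**Figure D5:**
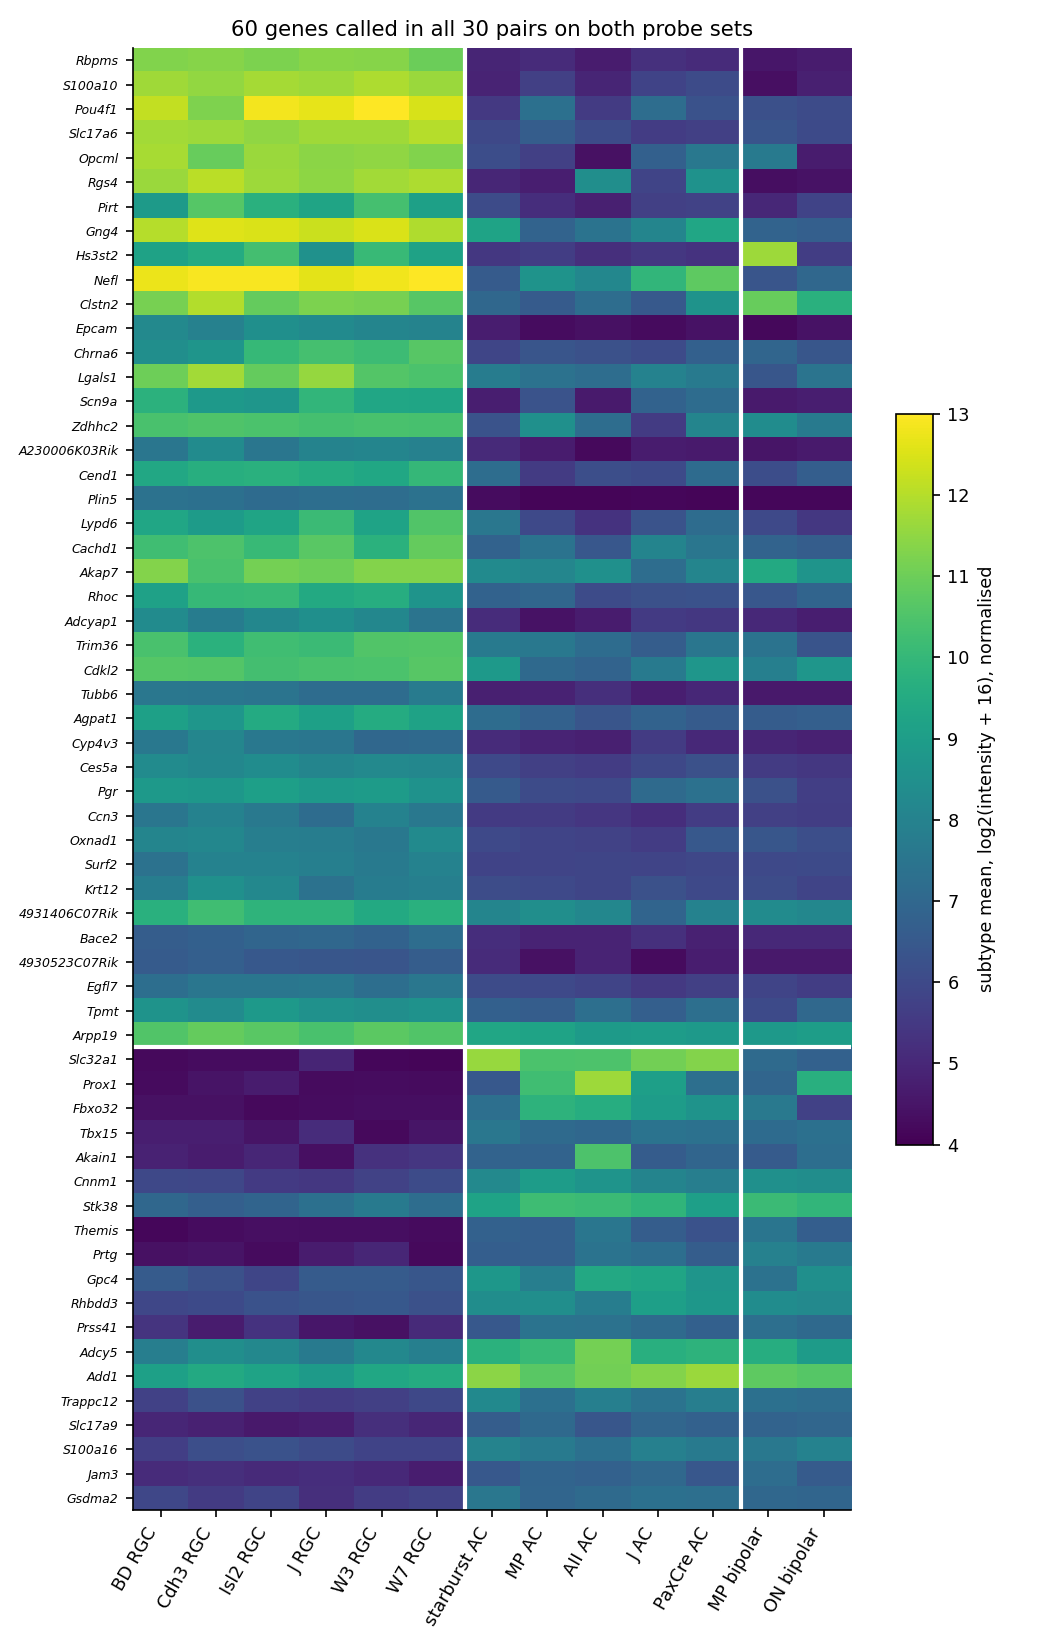
Subtype means as log2(intensity + 16) after normalisation (colour) of the 60 genes called in all 30 pairs on both probe sets, with RGC subtypes on the left, amacrine subtypes (AC) in the middle and bipolar subtypes on the right. The 41 genes above the white line are higher in each of the 6 RGC columns than in each amacrine column, though not all are low in amacrine cells. In most rows the bipolar columns resemble the amacrine ones, while Hs3st2 and Clstn2 are high in MP bipolar cells.

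Across all genes called in all pairs, the bipolar arrays mostly fell with the amacrine arrays. Both bipolar subtypes were on the amacrine side of the lowest RGC subtype for 98.0% of the 784 higher genes and for 98.5% of the 409 lower genes. They were nearer to the closest amacrine subtype than to the closest RGC subtype for 95.5% and 96.3%. Since bipolar and amacrine arrays also share their scale, class and array set cannot be told apart here either.

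Of the class differences that failed in some pair, only the 6 largest per direction were read gene by gene. The 6 largest of the higher ones were C1qa, Ctss, Igf1, Rgs5, Fam241a and Ly86, of which C1qa, Ctss and Ly86 are genes of microglia and other myeloid cells and Rgs5 is a gene of pericytes. C1qa, a complement gene, lay at 6.28 to 11.68 (median 9.80) in RGCs, against 4.39 to 7.33 (median 4.83) in amacrine cells, with 8.01 in W3 and 11.27 in J RGCs. Ctss, the cathepsin S gene, lay at 8.76 to 12.70 over the 12 RGC arrays (median 11.76) and at 4.40 to 11.69 over the 10 amacrine arrays (median 6.36). Its amacrine maximum was in MP cells, at 11.69 on replicate 2 and 9.49 on replicate 1. Rgs5 lay between 6.52 and 12.71 (median 10.73) on RGC arrays and between 4.92 and 9.21 (median 5.53) on amacrine arrays, with a J RGC mean of 12.57 and a W3 RGC mean of 8.55. Fam241a was the exception, since its RGC arrays, at 9.27 to 10.87 (median 10.12), did not overlap with its amacrine arrays, at 4.67 to 8.93 (median 5.66).

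The 6 largest of the lower ones were Tfap2b, Tfap2a, Krt24, Lamp5, Zfp385b and Kcna5. Krt24, a keratin gene, was at 10.64 in AII but at 5.11 in starburst cells, and the RGC arrays lay at 4.09 to 4.60 (median 4.16). Lamp5, a lysosome-associated membrane protein gene of some interneurons, was at 12.50 in AII and 5.29 in starburst cells, and passed in 18 pairs. Zfp385b passed in 28 pairs, but its next probe set gave -0.60 ± 0.16.

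Marker lists of other cells were read beside 15.8% higher and 9.00% lower among all genes. All 11 tested microglia genes were higher in RGCs and 1 of them, Fcer1g, in all pairs (median difference 2.78). The mean level of the list per array was 5.99 to 9.84 on RGC arrays and 5.27 to 7.13 on amacrine arrays, with the highest subtype mean in J (9.45) and the lowest of the RGCs in W3 (7.16). Of 12 vascular and mural genes, 9 were higher, with list means of 5.80 to 7.42 on RGC arrays and 5.16 to 5.56 on amacrine arrays. Col3a1 and Egfl7 of this list passed in all pairs. Without the J RGC arrays, 9 microglia genes and 8 vascular genes were still higher. On next brightest probe sets, 1 of 3 microglia and 3 of 4 vascular genes were higher.

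Of 12 rod genes, 7 were lower in RGCs and none was higher, with list means of 5.85 to 6.76 on RGC arrays and 6.74 to 8.87 on amacrine arrays. The highest rod mean was in MP amacrine cells (8.59), and without that subtype 7 were still lower. Rcvrn, the recoverin gene, was the 1 rod gene lower in all pairs (-2.25 ± 0.16). Otx2, a photoreceptor and bipolar factor gene, was also lower in all pairs (-4.18 ± 0.21), with means between 7.79 in starburst and 10.89 in MP amacrine cells. Of 8 horizontal cell genes, 3 were lower (Prox1 and Tfap2b among them), of 13 bipolar genes, 5 were lower and 3 higher, and of 5 astrocyte genes, 2 were lower and 1 higher. Of 11 Müller glia genes, 4 were higher and 1 lower. Macrophage genes gave 4 of 8 higher and 1 lower. Genes of dividing progenitors gave 1 of 12 higher and 4 lower, and cone genes 1 of 7 higher and 2 lower. On next brightest probe sets, 3 of 4 rod, 4 of 7 horizontal cell and 4 of 7 bipolar genes were lower. There, 1 bipolar gene was higher, as were 2 of 7 Müller glia genes. The shares to set beside these lists are 15.8% higher and 9.00% lower among all genes. The part of these cells in any class difference was not tested.

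J RGC replicate 1 carried amacrine transcripts above the other RGC arrays. Beside Tfap2b it had 9.05 of Tfap2a, 10.16 of Tfap2c, 9.03 of Gad1 and 5.41 of Slc32a1, while replicate 2 had 6.87, 7.80, 7.52 and 4.46. For Tfap2b (7.70), Tfap2c and Gad1, replicate 2 was also above every array of the other RGC subtypes (at most 7.45, 6.98 and 7.0). For Tfap2a and Slc32a1 it was not. On replicate 1, Slc17a6 (11.47) and Rbpms (11.15) were in the range of the other RGC arrays. Without both J RGC arrays, 3446 genes were called, 1232 of them in all remaining pairs.

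More genes varied among the amacrine subtypes than among the RGC subtypes. Among the 6 RGC subtypes 889 of 13951 genes (6.37%) varied (limma F-test, adjusted p under 0.05), and among the 5 amacrine subtypes 7322 (52.5%) did. With C57BL/6 subtypes alone, which leaves out Cdh3 RGCs and MP and AII amacrine cells, the counts were 556 and 2290. Strain, reporter and antibody gate also differed among the amacrine subtypes, and their part in these counts was not tested. Of the genes called higher in all pairs, 7.8% varied among RGC subtypes and 32.5% among amacrine subtypes. Of those called lower in all pairs, 1.7% and 34.7% did, and of class calls that failed in some pair, 14.1% and 62.9%. The RGC count was sensitive to 1 array: without BD RGC replicate 1 it rose to 1990. The all-pair genes were chosen partly for their small spread within a class, so the low shares among them are in part fixed by that choice.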

How the data were processed

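Cells were sorted from papain-dissociated retinas of postnatal day 6 mice, and RNA was amplified in 2 rounds and labelled with biotin, per the labels' protocols. The values deposited by the authors are intensities, 1 per probe set and array, with no log taken. Between 2.87% and 4.02% of the values of an RGC or amacrine column were exactly 1, and at most 0.03% were below 1. Software, background correction and scaling are not given in the sources, and the number of arrays limits the precision.

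Of 45037 probe sets other than controls, 34945 had 1 gene symbol and were used, 9160 had none and 932 had several. A gene was represented by its brightest probe set, which gave 18193 genes. Intensities plus a pseudocount of 16 were log2 transformed and quantile normalised over 26 arrays. The 13951 genes above the overall median of 6.14 on at least 2 arrays were fitted with limma 3.58.1 (R 4.3.3) as 13 subtype means, with 13 residual and 4.59 prior degrees of freedom. The class contrast is the mean of 6 RGC subtype means minus the mean of 5 amacrine subtype means. The adjusted p is Benjamini-Hochberg over all genes tested. Values of a gene named with ± are the difference and its SE.

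Genes named are the 15 per direction with the widest gap over all pairs, the 6 largest per direction among class calls that failed in some pair, the 6 markers, Thy1, and up to 6 members of each gene list by size (all members of short lists). Of 171 genes named, 50 fall outside that rule and were chosen after their values were seen. The comparison, its markers and the gene lists were chosen with earlier results of these data known. Other scalings, pseudocounts, filters, probe set rules, variance models and subsets of arrays were tried, as was the replicate number as a block. The numbers did not pair the samples: over 55 pairs of subtypes, their replicate differences correlated between -0.187 and 0.374 (median 0.035), and 17 were over 0.1.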

Additional observations from a re-analysis of the deposited data

How the results depend on the processing

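Counts kept within 1.5 times their main value under 41 alternatives except as follows and in the fits without single arrays given below. The J line alone holds a single pair of subtypes, so its counts in all pairs and of separated genes were not compared. Without normalisation, 3870 genes were higher and 639 lower in RGCs, 1308 and 205 of them in all pairs, and 2912 and 462 genes were separated on every array. With a pseudocount of 64, 2128 genes were called (1435 higher, 693 lower), 595 of them in all pairs (435 higher, 160 lower). A stricter filter (at least 6 arrays above the 75th percentile), which tested 8258 genes, gave 1876 calls (1271 higher, 605 lower), 540 of them in all pairs (394 and 146), 708 and 433 separated genes and 557 varying among RGC subtypes. The next brightest probe set, an alternative added after seeing the data that tested 6268 genes, gave 1675 calls (911 higher, 764 lower), 595 in all pairs (343 and 252), 629 and 498 separated genes, and 288 genes varying among RGC and 2734 among amacrine subtypes. With C57BL/6 subtypes alone, 1601 genes were separated lower, 556 varied among RGC and 2290 among amacrine subtypes. Array weights gave 1540 genes varying among RGC subtypes. The fits without J RGC cells (added after seeing the data) and with subtype means as units gave 3446 and 3172 calls.

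Leaving out each array in turn gave 3424 to 3528 calls (2168 to 2249 higher, 1247 to 1294 lower), 1115 to 1202 in all pairs (728 to 794 higher, 380 to 413 lower), 1434 to 1516 genes separated higher and 994 to 1059 lower. It gave 664 to 1990 genes varying among RGC and 5765 to 7791 among amacrine subtypes. With the replicate block there were 3456 calls, 1192 of them in all pairs, and 995 and 7519 varying genes, and the block changed no call of a named gene.

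Of 5945 values of the 147 called genes named, 5824 stayed on their side of the threshold, 88 lost the call and 33 changed sign. The next probe set changed the sign of Bcl11b (-0.11), Cacna1c (-0.23), Fut10 (2.24), Gad2 (-0.74), Il6st (-1.12), Kcna6 (-0.13), Kif3c (-2.04), Lifr (-1.80), Scn2b (-0.14), Slc6a11 (-1.05), Slc6a9 (0.58) and Tbx20 (2.63). The median over probe sets did so for Dcx (-0.06), Il6st (-0.48), Kif3c (-0.26), Lifr (-1.03), Scn2b (-0.07) and Tbx20 (0.64), and a pseudocount of 1 for Bcl11b (-0.13), Cacna1c (-0.26) and Fut10 (3.18). Fut10 was also positive in the columns as deposited (2.64), after shifts to the same median (2.13) or housekeeping mean (2.12), and with the 22 arrays alone (2.28), as was Tbx20 (2.65) there. The J line alone changed the sign of Ebf1 (-1.65), Ebf3 (-0.66), Fgf14 (-1.53), L1cam (-0.09), Neurod1 (0.10) and Scn2a (-0.36), and C57BL/6 subtypes alone that of Fgf14 (-0.37). Each scaling, each pseudocount and the fit of the 22 arrays chose the brightest probe set of a gene anew. A changed sign there can therefore be the reading of another probe set. The fits of the J line and of C57BL/6 subtypes kept the probe sets of the main fit. The cause of the sign changes was not tested. Values near the floor of 4.09 limit differences of dim genes.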
